A study of Mus musculus with 17 samples.

Results

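The control line of this study is a derivative of 3134 cells, a mouse mammary epithelial line, that carries a tetracycline-regulated transactivator and no remodeler transgene. It is set here against the 3 sister lines that carry, in addition, a stably integrated, Flag-tagged dominant-negative form of a chromatin remodeler: Brg1 (gene Smarca4), Chd4 or Snf2h (gene Smarca5), called dnBrg1, dnChd4 and dnSnf2h. All 5 arrays titled for the transactivator alone were compared with all 12 arrays titled for a dominant-negative protein, whatever their drug treatment, so 5 of the 17 arrays of the series belong to the control line. A gene is called separated when its 5 control values all lie on 1 side of the 12 other values. By that rule 1254 of the 19938 genes measured were separated.

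All 4 lines carry the transactivator and were kept in 5 µg/ml tetracycline, which holds the transactivator off. For the experiment, cells were plated for 48 h with the drug (repressed) or without it (induced), in medium with charcoal-dextran-treated serum. Without the drug the control line makes the transactivator only, and each other line makes the transactivator and its dominant-negative protein. The control line had 3 arrays labelled induced and 2 labelled repressed, and each of the dnBrg1, dnChd4 and dnSnf2h lines had 2 induced and 2 repressed arrays. About 100 ng of total RNA per array was labelled as biotinylated cDNA and hybridized to a whole-transcript array (Affymetrix Mouse Gene 1.0 ST), which reads transcripts with probes along their length.

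Each value is the deposited log2 signal of a gene's probe set, so a difference of 1 is a 2-fold change. A difference here is the control mean minus the average of the 3 other line means, and it was tested with limma over all 19938 genes. A gene passed when its Benjamini-Hochberg adjusted p was under 0.05, and "rose", "fell", "higher" and "lower" are used of genes that passed. The sources used here do not say whether replicate arrays came from separate cultures, so a p-value covers only how far these arrays scatter, which may be technical. They also do not say whether a line is 1 clone. The control is 1 line and the others are 3, and a difference between the control line and the rest cannot be told apart from what differs between any line and its sisters (clone, passage, processing batch).

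The 5 control arrays are called R1 and R2 (labelled repressed) and I1, I2 and I3 (labelled induced), and the labels of R1 and I1 are in doubt. Over all genes R1 was most like I2 (Pearson r = 0.9953), while R2 and I1 were most like each other (r = 0.9945). The comparison of lines uses no induction label. The control mean holds 3 arrays labelled induced and 2 labelled repressed, while each other line has 2 of each, so a difference may hold part of a change with drug state. The comparison was repeated on 15 arrays without R1 and I1, where R2, I2 and I3 are again an uneven mix. That fit called 4270 genes, 3926 of them among the 5964 genes that passed with 17 arrays, none of the shared ones in the opposite direction. The separated genes were chosen on these same arrays, so nothing is read from the 1194 of 1254 that passed in it.

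The markers of the labelled cell type gave a mixed picture. Of 19 luminal epithelial markers 8, among them Epcam (4.17), Krt19 (4.70) and Elf5 (4.76), averaged under 4.77 in the control line, the level below which the dimmest 30% of genes lie. Krt8 averaged 6.15, Krt18 5.70 and Cdh1 (E-cadherin) 5.32, while Cd24a at 10.33 and Gata3 at 8.16 were bright. Of 20 mesenchymal and fibroblast markers 5 were under the dim level (Cdh11, Dcn, Fap, Lum and Postn), and Vim averaged 12.84 and Pdgfrb 8.54. Signals of different probe sets do not rank genes against each other. Defining markers of leukocytes (Ptprc, 4.44) and adipocytes (Adipoq, 3.93) were under the dim level. Of 12 endothelial markers 3 (Emcn, Pecam1 and Tek) were under it and 9 were above. The endothelial cadherin Cdh5 was at 7.75 ± 0.04 in the control line (SD, n = 5) and 8.18 and 7.90 in dnChd4 and dnSnf2h, but 4.27 in dnBrg1.

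As background to the genes that follow, Brg1, Chd4 and Snf2h are the ATP-driven motors of the SWI/SNF, NuRD and ISWI families of complexes, which slide, eject or space nucleosomes, and an ATPase-dead form can occupy the place of the normal motor. NF-kB transcription factors are dimers held in the cytoplasm by inhibitor proteins until a signal removes the inhibitor. Their well-known targets include chemokines, which draw leukocytes into tissue, acute-phase proteins, and the inhibitors themselves, so that the pathway restrains its own activity.

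Of the 1254 separated genes, 787 were higher in all 5 control arrays than in all 12 others and 467 were lower, which is 3.95% and 2.34% of the genes tested. Over all genes, 3393 were called higher in the control line (17%) and 2571 lower (12.9%), or 29.9% in either direction. All but 1 of the separated genes also passed the test, which used the same values. The differences were small for most of them, with a median of 0.43 for the separated higher genes and -0.48 for the lower ones. At least 2-fold differences were found in 11 of the higher and 44 of the lower genes, and at least 4-fold in 2 higher and 10 lower genes. The split of the calls moved with scaling: 56.9% of the called genes were higher with the deposited values, 71.5% after quantile normalization and 65.9% after median centring, which shifted the median difference of all genes to 0.07 and 0.04, against 0.01 with the deposited values. Over all 35557 probe sets, most of the calls were lower, with 5368 higher and 6115 lower (46.7% higher).

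The control line was not alone in standing apart. When each line in turn was set against all other arrays, the dnBrg1 line had 715 genes above and 604 below all others (6.62% of genes, against 6.29% for the control line). The dnChd4 line had 10 and 5 such genes and the dnSnf2h line 28 and 28. In the fit of each line against the mean of the other 3, 1654 genes were higher and 1329 lower in dnBrg1, 92 and 50 in dnChd4, and 151 and 152 in dnSnf2h. Wide gaps between the nearest arrays were more frequent for dnBrg1, with 38 genes over 1 and 142 over 0.5, against 10 and 29 genes for the control line. The control line has 5 arrays and each other line 4, so the counts do not rest on equal numbers.

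**Figure D1:**
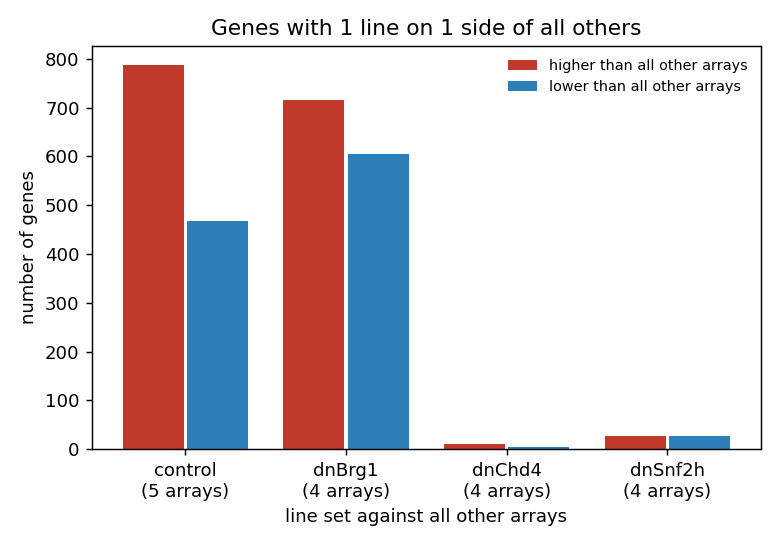
Number of genes (vertical axis) with all arrays of 1 line above (red) or below (blue) all other arrays, for each of the 4 lines. The control line (787 and 467 genes) and the dnBrg1 line (715 and 604) have many such genes, and dnChd4 and dnSnf2h have few.

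The genes that fell most in the control line include several for secreted proteins of the acute phase and of innate defence. Values of the 5 control arrays are given in the order R1, R2, I1, I2 and I3. Lcn2, the siderophore-binding protein lipocalin 2, read 5.25, 4.93, 5.14, 4.50 and 4.63 in the control arrays, against 8.47 to 11.20 with a median of 10.73 in the 12 others. The signal was near the dim level in every control array and far above the all-gene median in every other array, and the nearest arrays of the 2 sides lay 3.22 apart, the widest gap of the separated genes. The difference was -5.46 (SE 0.237, adjusted p = 6.26e-10), or 44 times lower in the control line. In RNA from a whole culture, fewer cells that make a transcript and less of it per cell cannot be told apart. By line, Lcn2 averaged 4.89 ± 0.32 in control (n = 5), against 9.34 ± 0.89 in dnBrg1, 10.77 ± 0.29 in dnChd4 and 10.93 ± 0.19 in dnSnf2h (SD, n = 4 each).

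Saa3, an acute-phase serum amyloid, had control values of 3.78, 4.17, 4.35, 4.74 and 4.34, against 7.64 to 10.66 with a median of 8.60 in the other lines. All control arrays were under the dim level and no other array was, with a gap of 2.89. Its difference was -4.55 (SE 0.346, adjusted p = 5.60e-07). C1s1, which encodes the complement protease C1s, read 4.76, 4.30, 3.95, 4.69 and 4.57 in the control line, against 6.50 to 7.81 with a median of 7.20 elsewhere, again with all control arrays under the dim level. It differed by -2.70 (SE 0.221, adjusted p = 1.06e-06). Slpi, a secreted inhibitor of leukocyte proteases, read 5.96, 5.59, 5.93, 6.05 and 6.03 in control arrays, against 7.08 to 8.33 with a median of 7.36 in the others, and its difference was -1.64 (SE 0.0769, adjusted p = 1.03e-09). Slpi was highest in dnBrg1, at 8.20, against 7.25 in dnChd4 and 7.22 in dnSnf2h, and lowest in control at 5.91.

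**Figure D2:**
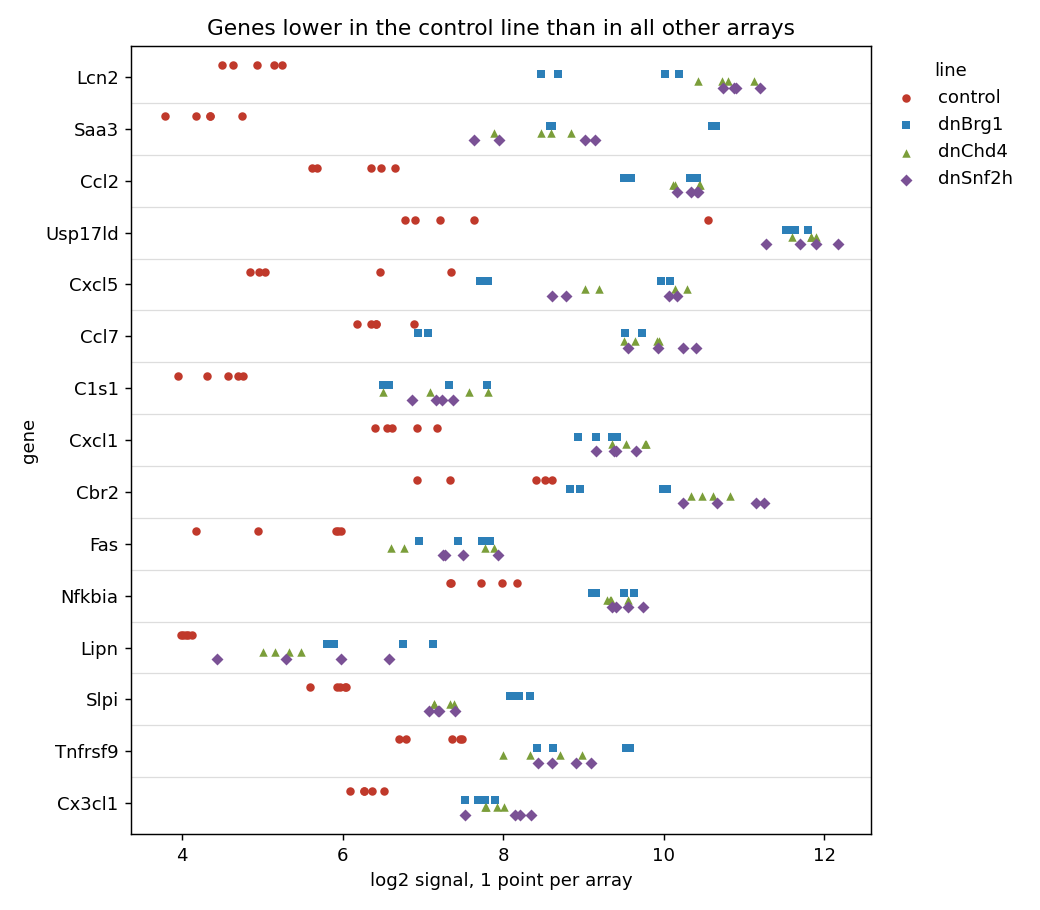
Log2 signal (horizontal axis) of the 15 named genes with the largest drop in the control line, 1 point per array, with the control line drawn above dnBrg1, dnChd4 and dnSnf2h in each row. Every control point lies left of all other points of its gene. Usp17ld has 1 control array at 10.55 beside 4 at 6.77 to 7.64, and Ccl7 has dnBrg1 arrays close to the control arrays.

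Chemokine genes held several of the largest drops. Of 20 measured chemokine genes 9 (45.0%) were lower and 2 (10.0%) higher in the control line, against 12.9% and 17% of all genes. Of the 20 genes 5 were separated lower and 1 higher, against 2.34% and 3.95% of all genes, and 9 did not pass. The median difference was -0.23, against 0.01 for all genes tested. The mean level of the 20 genes was 5.21 to 5.60 in the control arrays, against 5.82 to 6.52 in the others, with no overlap.

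Ccl2, the main chemoattractant of monocytes, read 6.47, 5.68, 5.62, 6.65 and 6.36 in the control arrays, against 9.50 to 10.46 with a median of 10.33 in the others. The 2 sides were far apart, with a gap of 2.85. The difference was -4.04 (SE 0.177, adjusted p = 6.26e-10), or 16.4 times lower in the control line. Cxcl1, a neutrophil chemoattractant, read 6.55, 6.62, 6.93, 7.17 and 6.41 in control, against 8.94 to 9.78 with a median of 9.39, and differed by -2.67 (SE 0.121, adjusted p = 7.55e-10) with a gap of 1.77. Cxcl1 varied little among the other lines, with means of 9.22 in dnBrg1, 9.61 in dnChd4 and 9.40 in dnSnf2h.

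Cxcl5, another neutrophil chemoattractant, had control values of 4.96, 7.35, 6.46, 4.84 and 5.03, against 7.72 to 10.29 with a median of 9.58 elsewhere. R2 and I1 were higher than the other 3 control arrays, and the nearest arrays of the 2 sides were 0.37 apart. Its difference was -3.59 (SE 0.484, adjusted p = 8.13e-05). Ccl7, a monocyte chemoattractant whose gene neighbours Ccl2, read 6.36, 6.89, 6.42, 6.42 and 6.18 in control arrays, against 6.94 to 10.41 with a median of 9.69 in the others, and the gap was only 0.05, with the induced dnBrg1 arrays at 6.94 and 7.06. The difference was -2.91 (SE 0.369, adjusted p = 4.70e-05). Cx3cl1 (fractalkine), a membrane-bound chemokine, read 6.27, 6.27, 6.10, 6.36 and 6.52 in the control arrays and 7.52 to 8.34 in the others, and differed by -1.58 (SE 0.108, adjusted p = 1.67e-07).

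The other chemokines that passed overlapped between the 2 sides or were dim. Cxcl10 (-0.87, adjusted p = 1.03e-04) and Ccl5 (-0.83, adjusted p = 8.86e-04), both induced by interferon in many cells, were among them, with Cxcl10 at 5.42 to 6.36 in control arrays and 6.16 to 7.57 in the others. Cxcl11 was the separated higher member, at 4.18 to 4.44 in control, against 3.93 to 4.13, which is under the dim level on both sides.

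Genes of the NF-kB pathway itself fell in the control line in 10 of 20 measured cases and rose in 2, and 8 did not pass. The shares over all genes were 12.9% lower and 17% higher. Of the 20 genes 6 were separated lower and none higher, against 2.34% and 3.95% of all genes. Without R1 and I1, 6 of the 20 genes were lower and none higher, against 1868 lower and 2402 higher of all 19938 genes. The median difference of the 20 genes was -0.28. Their mean level was 6.32 to 6.43 in control arrays, against 6.66 to 6.82 in the others, with no overlap. Among the inhibitors, Nfkbia, which encodes IkB-alpha, read 7.73, 7.36, 7.34, 8.18 and 7.98 in control, against 9.10 to 9.75 with a median of 9.38, and differed by -1.70 (SE 0.130, adjusted p = 5.65e-07). The shift of the line was larger than the range of either side. Nfkbiz, a nuclear IkB protein that aids a subset of NF-kB targets, read 6.38, 6.66, 6.60, 6.31 and 6.02 in control arrays, against 7.24 to 8.13 with a median of 7.62, with a difference of -1.28 (SE 0.134, adjusted p = 9.56e-06). Nfkbie, which encodes IkB-epsilon, ranged over 6.43 to 7.34 in control and 7.41 to 8.29 in the others (-0.90, adjusted p = 0.00102).

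Of the subunits, Nfkb2 (p100) was 8.78 ± 0.19 in the control line (SD, n = 5), against 9.56 ± 0.20, 9.47 ± 0.23 and 9.50 ± 0.22 in dnBrg1, dnChd4 and dnSnf2h (SD, n = 4 each), and Relb, its usual partner, ranged over 7.0 to 7.42 in control and 7.51 to 8.43 in the others (-0.67, adjusted p = 4.49e-04). Rela fell by less, with overlapping arrays (-0.23, adjusted p = 0.0133). Tnfaip3, which encodes the deubiquitinase A20 that shuts the pathway off, was separated lower by less (-0.48, adjusted p = 0.00412). The members that rose were Tnf (0.33, adjusted p = 0.00499) and the adhesion gene Icam1 (0.28, adjusted p = 0.0292), while the adhesion gene Vcam1 fell (-0.50, adjusted p = 0.00427).

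The promoters of Cxcl1, Nfkbia and Lcn2 are shown because Lcn2 and Cxcl1 are among the largest drops and Nfkbia encodes the pathway's own inhibitor. They were taken from RefSeq on GRCm38.p6 and are 300 bases each, most of them before the annotated start of the gene, 5′ to 3′ on the gene's strand. Capitals mark matches to the NF-kB consensus motif, searched on both strands. They lie at chr5:90890995-90891294 on the plus strand (Cxcl1), chr12:55492598-55492897 on the minus strand (Nfkbia) and chr2:32387690-32387989 on the minus strand (Lcn2).
Cxcl1: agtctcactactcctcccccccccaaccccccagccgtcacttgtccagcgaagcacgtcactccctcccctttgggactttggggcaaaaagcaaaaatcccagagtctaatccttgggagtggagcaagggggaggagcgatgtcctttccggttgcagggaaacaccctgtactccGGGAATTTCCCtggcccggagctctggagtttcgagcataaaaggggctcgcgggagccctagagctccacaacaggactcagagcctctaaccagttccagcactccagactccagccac
Nfkbia: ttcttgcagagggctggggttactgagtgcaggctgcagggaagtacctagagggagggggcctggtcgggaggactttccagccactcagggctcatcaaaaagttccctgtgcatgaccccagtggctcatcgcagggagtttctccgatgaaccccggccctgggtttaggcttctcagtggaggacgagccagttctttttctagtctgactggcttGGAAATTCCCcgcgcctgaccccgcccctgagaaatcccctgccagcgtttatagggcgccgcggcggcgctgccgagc
Lcn2: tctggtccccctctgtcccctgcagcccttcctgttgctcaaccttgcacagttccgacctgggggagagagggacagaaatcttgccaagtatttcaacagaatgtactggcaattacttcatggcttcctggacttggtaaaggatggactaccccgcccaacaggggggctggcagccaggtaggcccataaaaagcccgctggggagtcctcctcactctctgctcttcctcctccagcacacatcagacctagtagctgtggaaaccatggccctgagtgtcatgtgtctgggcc
The capitals in Cxcl1 are 2 overlapping matches, beginning at bases 180 and 181 of the printed stretch, and Nfkbia has a match beginning at base 222. The letters were not found in the Lcn2 stretch. Of the 15 named lower genes 12 had a promoter in the table, and 3 of these (25.0%) held the motif: Cxcl1, Nfkbia and Tnfrsf9. Of the named higher genes 9 had a promoter, and 2 of these (22.2%) held it: Mal and Rtn4rl2. A gene was counted when any of its annotated starts held the motif, which Tnfrsf9 has at some but not all of its starts. Among genes with a promoter, the share was 7.8% of 386 separated lower genes and 8.8% of 599 separated higher genes. Over all genes tested it was 5.7% of 15614. A match of letters is a description of the sequence and says nothing of whether a protein binds there.

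Several other genes fell strongly without belonging to these groups. Fas, which encodes a death receptor that p53 can induce, read 5.94, 4.95, 4.18, 5.91 and 5.98 in control arrays, against 6.60 to 7.93 with a median of 7.47 in the others. R2 and I1 were the lowest, and the difference was -2.02 (SE 0.288, adjusted p = 1.29e-04). Tnfrsf9, a costimulatory receptor of the TNF receptor family, read 7.36, 6.70, 6.79, 7.48 and 7.47 in control, against 8.0 to 9.58 with a median of 8.67 (-1.61, adjusted p = 6.22e-05). Cbr2, a carbonyl reductase, split within the control line, at 8.61, 6.93, 7.34, 8.41 and 8.52, against 8.83 to 11.25 with a median of 10.41 in the other lines (-2.32, adjusted p = 3.19e-05). The same pair of control arrays that was lowest for Fas was lowest for Cbr2.

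Lipn, a lipase family gene, was dim in every control array at 3.98 to 4.12, against 4.44 to 7.13 in the others (-1.69, adjusted p = 2.68e-04). Usp17ld, a deubiquitinase gene of a family of near-identical copies, read 6.77, 6.90, 10.55, 7.21 and 7.64 in the control arrays, against 11.28 to 12.17 with a median of 11.75 in the others (-3.91, adjusted p = 1.32e-05). Its probe set may also read its copies, and I1 stood close to the other lines.

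Of 20 mesenchymal markers 7 (35.0%) were lower and 2 (10.0%) higher, against 12.9% and 17% of all genes. The lower calls dropped to 4 after quantile normalization or without R1 and I1. Fn1 (fibronectin) was 10.76 to 11.42 in control arrays and 11.58 to 12.41 in the others (-0.71, adjusted p = 3.07e-04), and Postn (periostin) was 4.40 to 4.85 and 5.17 to 6.27 (-0.91, adjusted p = 7.96e-05). Both were separated. The separated higher members were Fbln1, a fibulin of elastic matrix (0.50, adjusted p = 3.84e-05), and Thy1 (0.35, adjusted p = 0.00239), so the list did not move 1 way, and its median was -0.09. Hspg2 (perlecan), a basement membrane proteoglycan, was separated lower with control values of 8.90, 8.74, 9.05, 8.51 and 8.43, against 9.31 to 9.82 with a median of 9.68 elsewhere (-0.94, adjusted p = 7.85e-06). The Notch ligand Jag1 (-0.97, adjusted p = 5.17e-06) and the receptor Notch2 (-0.60, adjusted p = 4.71e-05) were separated lower, while the Notch glycosyltransferase gene Mfng was separated higher (0.35, adjusted p = 0.00547). The secreted Wnt antagonist Sfrp2 averaged 5.14 ± 0.12 in the control line, against 7.23 ± 0.34, 5.71 ± 0.21 and 6.26 ± 0.38 in the dnBrg1, dnChd4 and dnSnf2h lines (-1.26, adjusted p = 1.24e-05).

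Of 22 interferon-stimulated genes 8 (36.4%) were lower and 2 (9.1%) higher (median -0.19), against 12.9% and 17% of all genes. Only Irf1, a transcription factor gene that both interferon and NF-kB induce, was separated. It read 7.19 to 7.53 in control arrays and 7.71 to 8.35 in the others (-0.74, adjusted p = 2.09e-05). A second, dimmer probe set of Irf1 differed by -0.01. Of 10 genes of antigen presentation by MHC class I, 3 were lower and 1 higher (median -0.04, but 0.005 after quantile normalization), and Tapbp (tapasin), which loads peptides, was separated at 9.30 to 9.59 in control and 9.93 to 10.61 in the others (-0.85, adjusted p = 2.01e-05).

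Cholesterol synthesis genes had the highest share of lower calls of the lists with at least 10 members measured. Of the 20 genes 12 were lower, 1 was higher and 7 did not pass, with a median of -0.34. The shares over all genes were 12.9% lower and 17% higher. Most of the 20 genes overlapped between the 2 sides, and 3 were separated lower, against 2.34% of all genes. Nsdhl, an enzyme late in the pathway, read 9.12, 8.71, 8.65, 8.92 and 8.95 in control, against 9.13 to 9.90 with a median of 9.65 (-0.70, adjusted p = 5.01e-04). Lss, which closes the sterol rings, ranged over 8.28 to 8.67 in control and 8.75 to 9.36 in the others (-0.51, adjusted p = 0.00113), and Srebf2, the transcription factor gene of the pathway, over 9.44 to 9.58 and 9.69 to 10.09 (-0.39, adjusted p = 3.73e-05). The distance differed by line: Cyp51, which encodes a sterol demethylase, averaged 7.59 in control, against 9.01, 8.14 and 7.93 in dnBrg1, dnChd4 and dnSnf2h (-0.77, adjusted p = 8.91e-05). Ebp, a sterol isomerase whose gene is on the X chromosome, was the member that rose (0.51, adjusted p = 1.64e-04), at 8.77 in control, against 7.73, 8.55 and 8.50 in dnBrg1, dnChd4 and dnSnf2h.

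On the higher side, S100a7a, an S100 protein gene of the psoriasin family, stood out. It read 9.93, 10.32, 9.15, 10.48 and 10.37 in the control arrays, against 6.40 to 7.96 with a median of 7.43 in the others. Its gap of 1.19 was the widest among separated higher genes, and the difference was 2.74 (SE 0.220, adjusted p = 8.13e-07), or 6.69 times higher in the control line. By line it averaged 10.05 ± 0.54 in control (n = 5), against 6.89 ± 0.56 in dnBrg1, 7.72 ± 0.22 in dnChd4 and 7.32 ± 0.38 in dnSnf2h (SD, n = 4 each). Csn3, which encodes the milk protein kappa-casein, read 6.74, 6.60, 6.63, 6.70 and 6.74 in control, against 4.80 to 5.66 with a median of 5.14 elsewhere. Control arrays lay close together, and the difference was 1.54 (SE 0.0888, adjusted p = 2.27e-08) with a gap of 0.94.

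Csn3 did not stand for milk genes in general. Of 11 milk genes measured, 2 (18.2%) were higher and 3 (27.3%) lower, against 17% and 12.9% of all genes. Csn1s1, another casein, was separated lower at 3.18 to 3.30 in control and 3.38 to 3.95 in the others, all under the dim level, and Xdh, an enzyme of the milk fat globule, was lower without separation (-1.07, adjusted p = 3.26e-04). Lcn2 is on this list too. The median of the list was -0.01, and it turned to 0.08 after quantile normalization and 0.01 after median centring.

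Mcpt8, a serine protease gene known from basophils, read 6.01, 6.16, 4.69, 7.03 and 7.0 in control arrays, against 3.89 to 4.50 with a median of 4.08, where all 12 were under the dim level. I1 was under it too, and the difference was 2.04 (SE 0.263, adjusted p = 5.50e-05). Of 16 macrophage and leukocyte markers, 1 (6.2%) was higher and 1 (6.2%) lower, against 17% and 12.9% of all genes. Ptprc did not pass (-0.06, adjusted p = 0.490). Mal, a membrane raft proteolipid gene, read 7.49, 7.07, 7.02, 7.71 and 7.74 in control, against 4.91 to 6.95 with a median of 5.94, with dnBrg1 far lower at 5.13 than dnChd4 at 6.56 and dnSnf2h at 6.13. Its difference was 1.47 (SE 0.173, adjusted p = 2.43e-05) with a gap of 0.07.

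Etv4, an ETS transcription factor gene that responds to Ras and MAPK signals, read 7.30, 7.72, 7.15, 7.42 and 7.23 in control arrays, against 5.93 to 6.61 with a median of 6.26, with a difference of 1.11 (SE 0.106, adjusted p = 4.51e-06). Rtn4rl2, a receptor gene of the Nogo receptor family, read 7.89, 8.05, 7.64, 8.0 and 8.0 in control, against 6.47 to 7.09 with a median of 6.76, with a difference of 1.15 (SE 0.105, adjusted p = 3.55e-06). Their gaps were 0.54 and 0.55.

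Timp1, an inhibitor of matrix metalloproteinases, read 9.63, 10.17, 9.91, 9.98 and 9.84 in control, against 8.09 to 9.55 with a median of 9.09, with the order control 9.91, dnChd4 9.31, dnSnf2h 9.09 and dnBrg1 8.40 (0.97, adjusted p = 1.84e-05). Gpx1, a glutathione peroxidase, read 9.93, 9.77, 9.58, 10.14 and 10.12, against 8.41 to 9.42 with a median of 8.85 (0.97, adjusted p = 6.32e-06), and here dnBrg1 was the nearest line at 9.35. Other named higher genes were C2cd4b (0.93, adjusted p = 3.24e-05), Prr23a1 (1.08, adjusted p = 3.60e-05), and 2 genes of germ cells, Dppa3 (0.94, adjusted p = 7.80e-05) and Spo11 (0.95, adjusted p = 7.85e-07). Spo11, which makes the breaks of meiotic recombination, was under the dim level in control (4.21 to 4.63) as well as in the others (3.28 to 3.76). A second probe set of Dppa3 differed by 0.08. The small RNA genes n-R5s136 (a 5S ribosomal RNA, 1.44, adjusted p = 5.74e-04) and Rprl1 (0.95, adjusted p = 0.00114) have copies or relatives that their probes may also read.

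**Figure D3:**
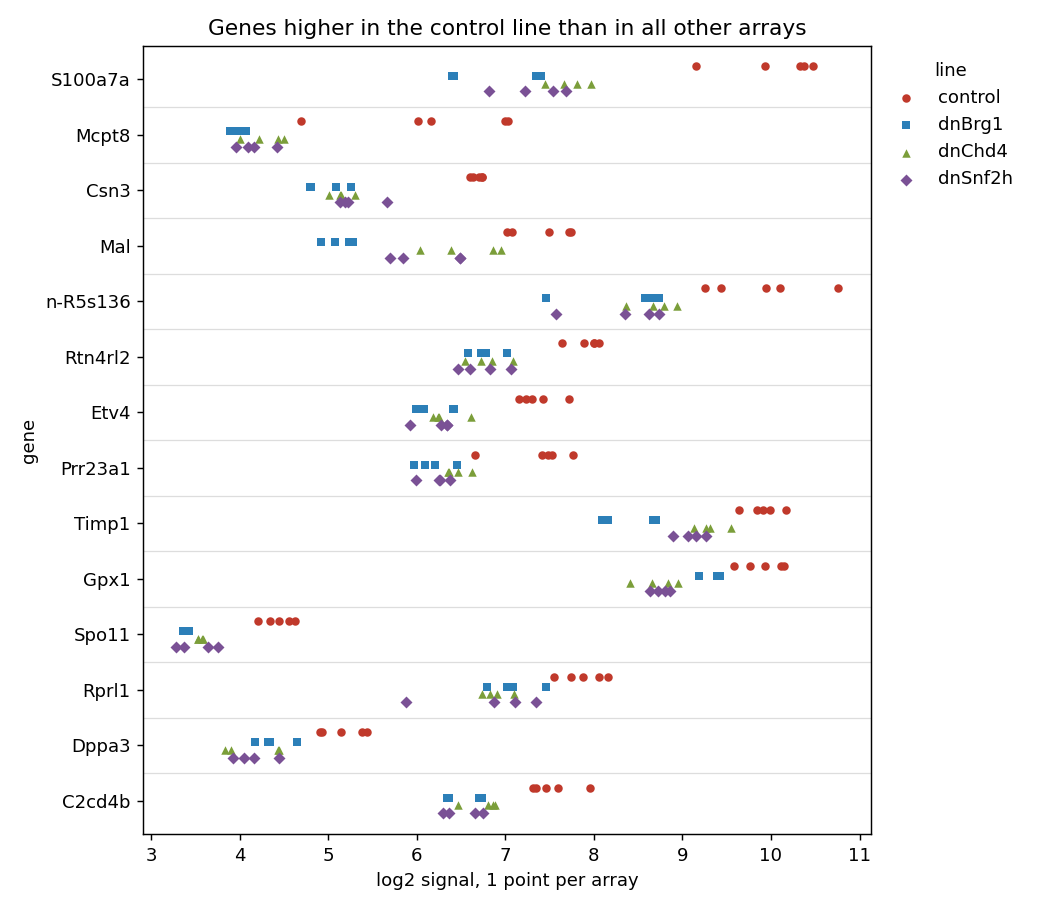
Log2 signal (horizontal axis) of 14 of the 15 named genes with the largest rise in the control line, 1 point per array, with the control line drawn above dnBrg1, dnChd4 and dnSnf2h in each row. Every control point lies right of all other points of its gene, S100a7a and Csn3 with clear gaps and Mal and Prr23a1 with narrow ones.

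Narrow spreads gave separation to smaller rises as well. Cygb (cytoglobin, an oxygen-binding protein) read 6.53, 6.72, 6.56, 6.65 and 6.55 in control, against 5.48 to 5.84 with a median of 5.75, with a gap of 0.69 and a difference of 0.87 (SE 0.0610, adjusted p = 1.95e-07). Cdkn1c, an imprinted gene that encodes the cell cycle inhibitor p57, read 6.21, 6.20, 6.08, 6.07 and 6.11 in control, against 5.24 to 5.52 with a median of 5.39, with a gap of 0.55 and a difference of 0.74 (SE 0.0508, adjusted p = 1.67e-07). Of 20 imprinted genes measured 7 (35.0%) were higher and 2 (10.0%) lower (median 0.13), against 17% and 12.9% of all genes. After quantile normalization 12 were higher, but the higher calls over all genes rose too, from 3393 to 5081. Dlk1, a Notch-like ligand, was the other separated one (0.70, adjusted p = 2.00e-04). The mean level of the list was 5.03 to 5.17 in control arrays and 4.78 to 4.97 in the others.

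Wnt pathway genes were higher in the control line in 19 of 49 cases (38.8%) and lower in 2 (4.1%). Over all genes 17% were higher and 12.9% lower. Of the 49 Wnt pathway genes 8 were separated higher and 1 lower, and their median was 0.15. Most of the higher ones were ligands, and most read under the all-gene median of 5.95 in the control line. Wnt9a, a ligand, was the clearest at 7.38, 7.16, 7.04, 6.94 and 7.14 in control, against 6.44 to 6.68 with a median of 6.60 (0.56, adjusted p = 7.59e-06). Wnt3 ranged over 5.18 to 5.55 in control and 4.72 to 5.09 in the others (0.48, adjusted p = 6.97e-05), and the receptor Ror2 over 6.27 to 6.70 and 5.75 to 6.10 (0.49, adjusted p = 2.01e-04). Array mean levels of the list, at 5.95 to 6.05 in control and 5.79 to 5.97 in the others, overlapped. Among 28 Ras and MAPK feedback genes 9 (32.1%) were higher and 1 (3.6%) lower (median 0.12). Etv4 and the MAPK phosphatase gene Dusp5 (0.61, adjusted p = 1.15e-04) were separated. Dusp1 (0.86, adjusted p = 0.00166) and Etv5 (0.68, adjusted p = 0.00160) were higher without separation.

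Of 37 Hox genes, which specify position along the body axis, 10 (27.0%) were higher and 2 (5.4%) lower (median 0.10). Over all genes 17% were higher and 12.9% lower. Hoxd1 (0.40, adjusted p = 4.84e-04) and Hoxd13 (0.36, adjusted p = 0.00339) were separated higher and Hoxc4 lower (-0.35, adjusted p = 4.66e-04). All 3 were dim or nearly so: in control Hoxd13 averaged 4.48 and Hoxc4 4.50, both under the dim level, and Hoxd1 4.96. The gaps of Hoxd13 and Hoxc4 were 0.04 and 0.01. Of 19 luminal epithelial markers 6 (31.6%) were higher and 1 (5.3%) lower (median 0.14). After quantile normalization 12 were higher, but the higher calls over all genes rose too, from 3393 to 5081. Without R1 and I1, 4 were higher. Krt7 (0.53, adjusted p = 9.63e-04), the tight junction gene Cldn3 (0.51, adjusted p = 6.92e-04) and Foxa1 (0.38, adjusted p = 7.92e-04) were separated. Krt7 averaged 6.14, Cldn3 6.59 and Foxa1 5.47 in control. NRF2 targets, genes of the oxidative stress response, were higher in 8 of 19 cases (42.1%) and lower in none (median 0.13), and none was separated. Hmox1 (heme oxygenase) had the largest difference, at 8.09 to 9.13 in control arrays and 6.47 to 8.21 in the others (0.98, adjusted p = 0.00918). Set against single lines by limma, it passed against dnBrg1 only (1.38, adjusted p = 0.00437). It did not pass against dnChd4 (0.78, adjusted p = 0.126) or dnSnf2h (0.78, adjusted p = 0.0996), though its call was kept without the dnBrg1 line. Hmox1 also rose on induction over the 3 other lines (0.92, adjusted p = 6.98e-08).

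**Figure D4:**
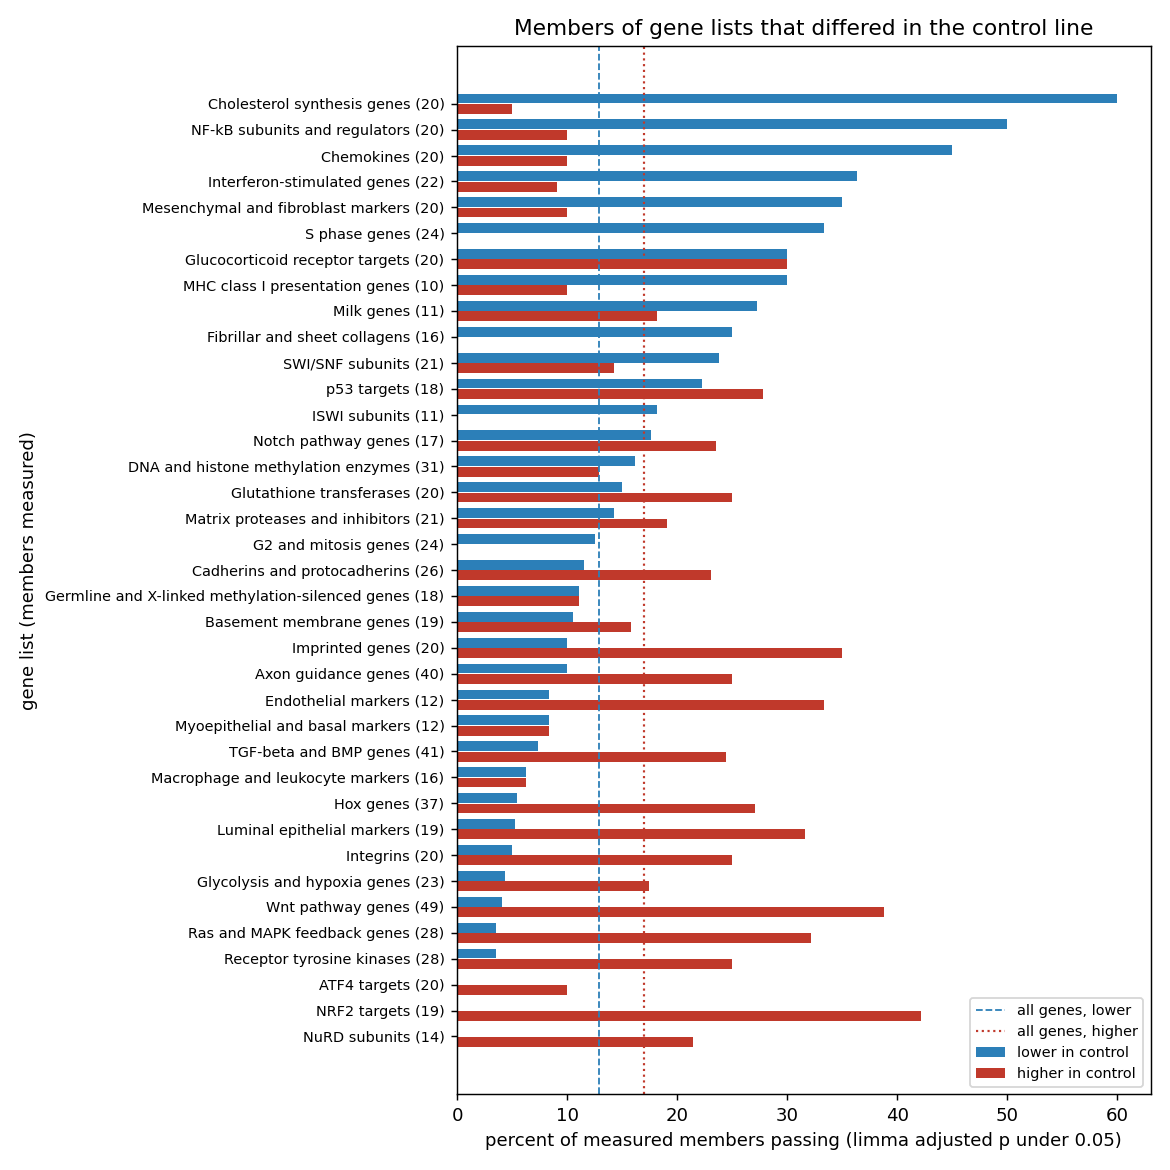
Percent of the measured members (horizontal axis) of each gene list with at least 10 members measured that were lower (blue) or higher (red) in the control line. The dashed and dotted lines mark the shares over all genes, 12.9% lower and 17% higher. Cholesterol synthesis, NF-kB and chemokine genes reach the highest lower shares, and NRF2 targets and Wnt pathway genes the highest higher shares.

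The cell cycle lists were spread widely among the control arrays. No S phase gene rose and 8 of 24 fell (33.3%, or 3 of 24 without R1 and I1), against 17% and 12.9% of all genes. Their median was -0.61 and none was separated. Of 24 G2 and mitosis genes 3 fell (12.5%, near the 12.9% of all genes), with a median of -0.40. The mean level of the S phase genes was 7.88, 9.22, 9.12, 7.94 and 7.86 in the control arrays R1, R2, I1, I2 and I3, against 8.37 to 9.42 in the others. R2 and I1 thus lay within the range of the other lines, and R1, I2 and I3 below it. The other lines also split by drug state, at 9.21 to 9.42 in repressed arrays and 8.37 to 8.86 in induced ones. The G2 and mitosis genes split the control arrays in the same way, with R2 at 9.46, I1 at 9.37 and R1, I2 and I3 at 7.96 to 8.12. In the other lines they ranged over 9.32 to 9.47 in repressed arrays and 8.36 to 8.85 in induced ones. R2 and I1 also stood apart within the control line for Cxcl5, Fas and Cbr2, and by less for Ccl2 and Nfkbia. Other list means split too. NRF2 targets were at 9.33 and 9.25 in R2 and I1 and at 8.935 to 9.02 in R1, I2 and I3, against 8.66 to 9.09 in the other lines. Chemokines were at 5.60 and 5.50 in R2 and I1, beside 5.21 to 5.31, and NF-kB genes at 6.32 and 6.35, beside 6.40 to 6.43. Whether growth state has a part in the other differences was not tested. The targets of the glucocorticoid receptor were 6 higher and 6 lower of 20 (median -0.11), and Lcn2 was the separated one. The receptor gene Nr3c1 did not pass (-0.01, adjusted p = 0.895).

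Of the remodeler genes themselves, Smarca4 averaged 9.23 ± 0.08 in the control line (SD, n = 5), against 9.61 ± 0.12 in dnBrg1, 9.26 ± 0.05 in dnChd4 and 9.30 ± 0.13 in dnSnf2h (SD, n = 4 each), with a difference of -0.17 (SE 0.0578, adjusted p = 0.0392). That call was lost in 20 of 33 other settings. Against dnBrg1 alone the difference was -0.39 (adjusted p = 9.71e-04). Chd4 averaged 9.93 ± 0.10 in control, against 11.36 ± 1.05 in dnChd4, 10.14 ± 0.15 in dnBrg1 and 10.13 ± 0.12 in dnSnf2h, and its difference from the mean of the lines did not pass, at -0.61 (SE 0.249, adjusted p = 0.0752). The induced dnChd4 arrays stood at 12.27 and 12.27. Smarca5 was 9.59 ± 0.17 in control, against 9.63 ± 0.16 in dnSnf2h, 9.05 ± 0.16 in dnBrg1 and 9.67 ± 0.12 in dnChd4, and did not pass either, at 0.14 (SE 0.0809, adjusted p = 0.196). Against dnBrg1 alone Smarca5 differed by 0.54 (adjusted p = 9.44e-04). The probe sets may read the endogenous gene and the transgene together.

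Of their relatives, Smarca2, the other SWI/SNF motor, fell (-0.43, adjusted p = 0.0130, or 0.0568 with the line as a random block). It differed by -0.77 (adjusted p = 0.00131) from dnBrg1, but by -0.25 (adjusted p = 0.288) from dnChd4 and -0.27 (adjusted p = 0.218) from dnSnf2h, and without the dnBrg1 line the call was lost (-0.26, adjusted p = 0.0503). Chd3 (0.18, adjusted p = 0.372) and the dim Smarca1 (-0.04, adjusted p = 0.739) did not pass. The shares called among the subunits were not far from those of all genes, 17% higher and 12.9% lower, and nothing is read from them. Of 21 SWI/SNF subunits 3 were higher (14.3%) and 5 lower (23.8%), with Smarcd2 separated higher (0.54, adjusted p = 5.32e-04). Of 14 NuRD subunits 3 were higher (21.4%) and none lower, with Gatad2a separated (0.48, adjusted p = 1.73e-04), and of 11 ISWI subunits none was higher and 2 were lower (18.2%), or none without R1 and I1.

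Set against 1 line at a time, with the same 5 control arrays in each comparison, the control line had 2964 genes higher and 2421 lower than dnBrg1 (27.0% called), 1410 and 934 against dnChd4 (11.8%), and 2208 and 1554 against dnSnf2h (18.9%). Lcn2 differed by -4.45 (adjusted p = 4.52e-08) from dnBrg1, by -5.88 (adjusted p = 1.19e-08) from dnChd4 and by -6.04 (adjusted p = 6.15e-09) from dnSnf2h. Saa3 differed by -5.34 (adjusted p = 4.07e-07), -4.17 (adjusted p = 3.65e-05) and -4.16 (adjusted p = 3.37e-05), and Ccl2 by -3.80 (adjusted p = 9.94e-09), -4.13 (adjusted p = 1.23e-08) and -4.18 (adjusted p = 1.35e-08), from dnBrg1, dnChd4 and dnSnf2h in that order. S100a7a differed by 3.16 (adjusted p = 7.62e-07), 2.33 (adjusted p = 1.47e-04) and 2.74 (adjusted p = 3.20e-05) from the same lines.

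A call against the mean of the lines can rest on a single line. Cdh5 passed (0.97, adjusted p = 1.72e-06) with only dnBrg1 lower than control, and without the dnBrg1 line its difference was -0.28 (adjusted p = 0.00968). Nid1, a basement membrane linker, averaged 7.64 in control, against 4.78 in dnBrg1, 7.75 in dnChd4 and 7.52 in dnSnf2h, and Igf2r 7.75, against 5.66, 7.89 and 7.32. None of these 3 genes was separated, and neither were 4711 of the called genes.

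Some separated genes also changed between the induced and repressed arrays of the other lines. Drug withdrawal switches on the transactivator as well as the dominant-negative protein, and this fit leaves out the control arrays. A change in it therefore cannot be assigned to the dominant-negative protein. Over the 12 arrays of the other lines, 6076 genes (30.5%) changed between induced and repressed, and 159 of the 1254 separated genes (12.7%) did. A gene that moves with induction is less likely to meet the rule, so nothing is read from the lower share. Averaged over the 3 lines, Cxcl5 changed by -1.59 (adjusted p = 2.34e-10) on induction, Saa3 by -1.29 (adjusted p = 7.65e-08), Ccl7 by -1.19 (adjusted p = 1.86e-08) and Lcn2 by -0.45 (adjusted p = 5.87e-04), toward the control line's level. Tnfrsf9 changed by 0.73 (adjusted p = 2.64e-06) and Fas by 0.66 (adjusted p = 1.80e-04), away from it, and S100a7a by 0.58 (adjusted p = 6.75e-05), toward it. Among the control arrays, which make no dominant-negative protein, R2 and I1 stood apart from the other 3 for Cxcl5, Fas and Tnfrsf9. They did not for Saa3, Ccl7, Lcn2 or S100a7a.

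The averages over the 3 lines hide differences in size between the lines, which were not tested. Lcn2 changed by -1.53 (adjusted p = 1.23e-05) in dnBrg1, by 0.39 (adjusted p = 0.0796) in dnChd4 and by -0.21 (adjusted p = 0.379) in dnSnf2h, so that of the 3 lines only dnBrg1 passed. Ccl7 changed by -2.62 (adjusted p = 1.78e-08) in dnBrg1, more than that line's mean difference of -1.86 (adjusted p = 0.00729) from control, and its induced dnBrg1 arrays, at 6.94 and 7.06, nearly reached the highest control array at 6.89. In dnChd4 and dnSnf2h, Ccl7 changed by -0.36 (adjusted p = 0.0624) and -0.58 (adjusted p = 0.00426). Saa3 passed in all 3 lines, with changes of -2.03 (adjusted p = 2.21e-06) in dnBrg1, -0.54 (adjusted p = 0.0272) in dnChd4 and -1.29 (adjusted p = 6.67e-05) in dnSnf2h, and so did Cxcl5. S100a7a changed by 0.96 (adjusted p = 4.57e-04) in dnBrg1, 0.18 (adjusted p = 0.481) in dnChd4 and 0.59 (adjusted p = 0.0102) in dnSnf2h. Fas passed in dnBrg1 and dnChd4, and in dnSnf2h its change was 0.23 (adjusted p = 0.473).

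**Figure D5:**
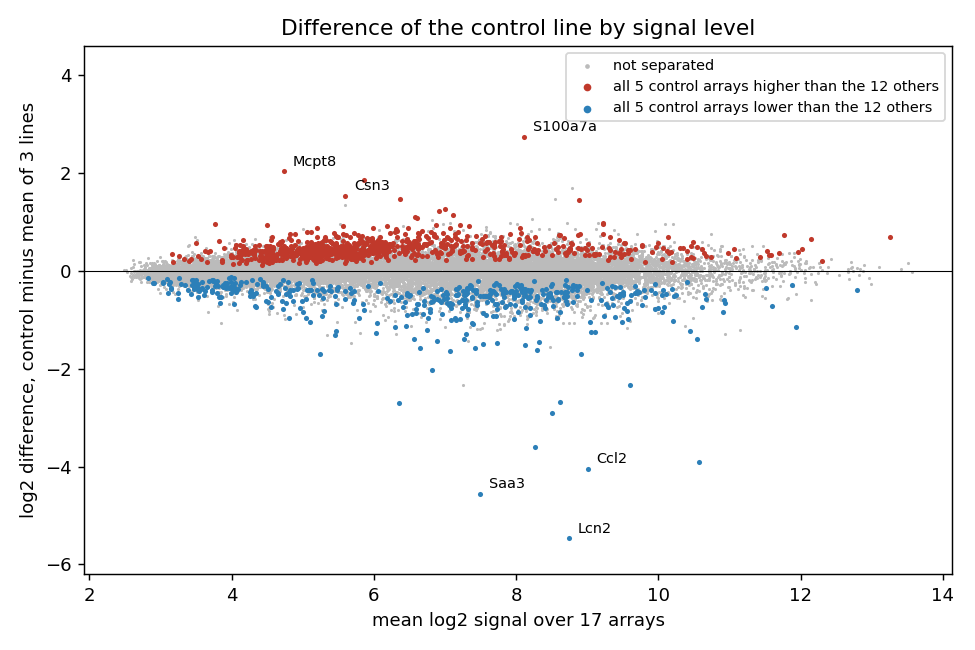
Difference of each gene between the control line and the mean of the other 3 lines (vertical axis, log2) by its mean log2 signal over 17 arrays (horizontal axis). Separated higher genes (red) crowd at small differences and low to middle signal, and the largest drops (blue), led by Lcn2, Saa3 and Ccl2, lie far from the rest.

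Separated genes were found over the whole range of signal, but at different levels on the 2 sides. The separated higher genes had a median level of 6.13 in control and 5.66 in the other lines, and the separated lower genes 6.64 in control and 7.42 in the others, with 5.95 over all genes. Both sides were under the dim level for 84 of the higher and 104 of the lower genes, whose differences rest on signals near the floor of the array. At the edge of the rule the gaps were as small as 0.00078 (Olfm1), 0.00112 (Sftpa1) and 0.00127 (C2cd4a) for higher genes and 0.00013 (Apbb2), 0.00015 (Psg19) and 0.00045 (Nudt5) for lower ones. Just outside it, Spink14, Cela3a and Elof1 tied at 0, and Sppl2b, Tekt2 and Cts7 overlapped by 0.0002, 0.0004 and 0.0007.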

How the data were processed

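Per the labels' protocols, total RNA was extracted with Trizol, labelled with biotin and hybridized to the arrays. Affymetrix Expression Console was used, per the submitters' processing notes, and the values deposited by the authors are log2 signals, as judged from their range of 2.02 to 14.86. Neither the software version nor the summarization, normalization or build is given in the sources used here. An array gives no read depth, and the number of arrays limits the precision.

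The platform annotation names 1 gene for 21789 of 35557 probe sets, several genes for 1621 and no gene for 12147. For the 999 genes with more than 1 such probe set the one with the highest mean was kept, which left 19938 genes. Hras and other genes without a singly named probe set were not analysed here.

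The deposited log2 values were fitted with 1 mean per line in limma 3.58.1 under R 4.3.3 (lmFit, eBayes), two-sided, with Benjamini-Hochberg adjustment over all genes. On simulated data, the test recovered 73% of changes of 0.5 and 98% of changes of 1 log2 unit, and 4.5% of its calls were false. The simulation gave the 4 lines the same mean, drew independent scatter and moved 200 of the 19938 genes in the control line. It held no differences among the other lines and far fewer changed genes than were called here. The 4.5% therefore does not describe the error of the real comparison. No induction term was used, since the comparison does not use that label.

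The members, gene lists, naming rule and settings were chosen with earlier results of these data known. The 39 lists held 876 entries for 860 genes, of which 808 were measured. Named genes were the 15 highest and 15 lowest differences and the 5 widest gaps per direction among separated genes that passed, up to 4 separated members per list or else the member with the largest difference, the 2 highest and lowest per line, and the remodeler genes. Predicted genes, clone names, receptor genes of smell and taste, microRNAs and small nucleolar RNAs were skipped. Genes given beyond that rule were chosen as list members after their values were seen. Some genes that the rule names, most of them list members, are not reported here. The other settings are named below with their effect. They include other scalings, priors and filters, blocks, and each array or line left out. An induction fit over 12 arrays, a line by induction interaction and the look at neighbouring genes were added after seeing the data.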

Additional observations from a re-analysis of the deposited data

Results flagged for a closer look

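In the library labelled control induced replicate 1, Usp17ld stood far above the other 4 control arrays, at 10.55 beside 6.77 to 7.64, a gap of 0.77 of the range of the 5 arrays. Jag1 was likewise highest there, at 6.87 beside 6.33 to 6.42 (0.836 of the range). In the library labelled control repressed replicate 2, Slpi was lowest, at 5.59 beside 5.93 to 6.05 (0.754), and Smarca5 highest, at 9.88 beside 9.48 to 9.58 (0.74). These are 4 of the 99 named genes, or 4.0%, at Dixon's critical value of 0.71, and chance flags about 1 in 20.

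The difference of Saa3 between the control line and the others was smaller in the arrays labelled induced than in those labelled repressed, by 1.784 (limma adjusted p of the interaction 0.0244). It was 1 of 2 genes to pass this test over all genes, with 1299 at an unadjusted p under 0.05, and it uses the induction labels of 2 control arrays that are in doubt.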

How the results depend on the processing

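All 32 genes named for their difference or gap kept their direction and stayed past the threshold in every setting run for them. They were chosen as the largest on these same arrays, so nothing is read from that. Among the other named genes, Smarca4 missed the threshold in 20 of 33 settings and Baz1b in 17, and Cdh5 turned to -0.283 without the dnBrg1 line. Leaving out 1 array moved the genes with all control arrays below all others to 474 to 720 (720 without control induced replicate 1), the calls against dnChd4 to 1204 to 2556 (1204 without its induced replicate 1, 1547 without its induced replicate 2) and those against dnSnf2h to 2437 to 3861 (2437 without its repressed replicate 2). Array weights gave 4193 calls against dnChd4, and quantile normalization 1278 genes with all control arrays above all others. With all 35557 probe sets, 5368 were called higher and 6115 lower (46.7% higher), and 1332 lay above and 1290 below all others. The causes of these moves were not tested beyond the larger number of probe sets. The 15 arrays gave 1229 above and 975 below. Arrays labelled repressed alone gave 786 called higher and 675 lower, 1756 against dnBrg1, 52 against dnChd4 and 223 against dnSnf2h, with 3011 above and 2402 below. Arrays labelled induced alone gave 1375 and 1029, 2560, 546 and 492, with 2124 and 1298. Without the dnBrg1 line 1679 genes were called lower, and 724 lay below all others. The other settings kept each count within 1.5 times. The median differences of the chemokine, NF-kB, cholesterol synthesis, cell cycle, Wnt, Hox, imprinted, luminal, NRF2 and MAPK lists kept their sign after quantile normalization, after median centring and with the 15 arrays.

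Replicate numbers showed no common pairing of the samples: deviations of replicate 1 arrays from their group means correlated at -0.76 to 0.31 over 28 pairs of groups (median 0.00683). The lowest, -0.76, is a strong correlation of opposite sign, and what lies behind it was not tested. With a replicate block 2787 genes were called higher and 1974 lower. With the line as a random block (consensus correlation 0.0243) 4573 genes passed, 1248 of the 1254 separated genes among them. Nothing is read from the 1248, since the separated genes were chosen on these same arrays.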

Other observations

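Neighbouring genes on 2 chromosomes are given as values, for windows chosen after the data were seen. Genes with a mean log2 signal of at least 6 were taken in chromosome order from the GRCm38 table. The first 20 such genes of chromosome 9 had a median difference of -0.32 between the control line and the others, against -0.04 for the other 532 genes of the chromosome and -0.01 over all 9827 such genes. Of the 20 genes, 17 had a lower mean in the control line, against 51.0% of all such genes. By limma 10 passed as lower and 2 as higher, against 87 and 64 of the other 532 genes. Casp4 and Casp12, which encode inflammatory-type caspases, Birc2, an inhibitor of apoptosis, and Dync2h1, a dynein of cilia, were separated lower, and Mtmr2, a lipid phosphatase, higher.

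The first 60 genes of the X chromosome had a median difference of 0.22, with 28 called higher and none lower. The other 222 such genes of the chromosome had a median of -0.01, with 40 called higher and 44 lower. The median of the 60 genes was 0.64 against dnBrg1, -0.01 against dnChd4 and 0.08 against dnSnf2h, so dnBrg1 was the line that differed most from control there. Timp1, Ccdc22 and Rbm3 were among the separated higher genes of this stretch. What lies behind either pattern was not tested.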
